A study of Mus musculus with 12 samples.

Results

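The genes examined were 10 members of the integrated stress response, out of 43686 rows of a table of gene counts from mouse heart. They were taken by gene symbol: the transcription factors Atf4, Atf5 and Ddit3, the regulators Trib3 and Nupr1, the secreted factors Gdf15 and Fgf21, and the effectors Sesn2, Chac1 and Ddit4. All 10 had a row, and 9 passed the filter on low counts, Fgf21 being the exception. RNA had been taken from the ventricular wall of 6 WT mice (Sdhaf4 fl/fl, without Cre) and 6 KO mice (Sdhaf4 fl/fl carrying Ckmm-Cre), all labelled as C57BL/6 (C57BL/6J in the study's methods) and as postnatal month 2, an age on which the study's text and the labels differ. Both groups therefore carry the floxed alleles, and the Cre transgene is driven by the muscle creatine kinase promoter, which acts in heart and skeletal muscle, so a KO heart still has nonmuscle cells with intact alleles. SDHAF4 is an assembly factor of succinate dehydrogenase, complex II of the respiratory chain. The study reports that hearts of such KO mice enlarge, dilate and lose function, with collagen deposition at later ages. The comparison asks how the transcripts of this stress program differ between these KO hearts and WT hearts. Loss of SDHAF4, the Cre transgene and heart disease cannot be told apart in it.

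The integrated stress response is a shared brake on protein synthesis. Kinases that sense amino acid shortage, unfolded proteins in the endoplasmic reticulum (ER), double-stranded RNA or heme and mitochondrial stress phosphorylate the initiation factor eIF2, which slows translation of most mRNAs while raising that of Atf4 through upstream reading frames. ATF4 then switches on genes of amino acid supply, redox balance and, through CHOP (Ddit3), cell fate. In muscle and heart with defective mitochondria the response is also known for the hormones GDF15 and FGF21, called mitokines, which act on other organs. Because much of this control acts on translation and phosphorylation, mRNA levels show only one layer of it.

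Several of these genes carry a C/EBP-ATF response element, the composite site to which ATF4 and C/EBP proteins bind. The 8-letter core TGATGNAA was searched on both strands of RefSeq promoter windows (GRCm38.p6, 250 bases before to 50 after an annotated start). It was found for 4.51% of all 27025 genes (3.97% of 32851 windows) and for 4 of the 10 genes: Nupr1, Fgf21, Chac1 and Trib3. Their sequences are printed because these 4 genes, with the same core, gave different readings in the hearts, from a called rise in Nupr1 to too few counts in Fgf21. Capitals mark the core, which lies on the reverse strand in each of them.

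Nupr1, chr7:126625471-126625720, minus strand: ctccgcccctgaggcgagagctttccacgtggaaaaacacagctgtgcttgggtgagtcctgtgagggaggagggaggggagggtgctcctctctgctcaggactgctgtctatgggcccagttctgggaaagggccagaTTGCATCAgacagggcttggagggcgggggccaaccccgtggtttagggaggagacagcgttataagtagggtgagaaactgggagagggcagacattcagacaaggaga
Fgf21, chr7:45615491-45615740, minus strand: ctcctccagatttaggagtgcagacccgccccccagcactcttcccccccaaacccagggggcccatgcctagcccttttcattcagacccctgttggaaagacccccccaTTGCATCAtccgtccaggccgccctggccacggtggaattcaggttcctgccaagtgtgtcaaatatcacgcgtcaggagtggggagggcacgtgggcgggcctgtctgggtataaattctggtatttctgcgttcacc
Chac1, chr2:119350992-119351241, plus strand: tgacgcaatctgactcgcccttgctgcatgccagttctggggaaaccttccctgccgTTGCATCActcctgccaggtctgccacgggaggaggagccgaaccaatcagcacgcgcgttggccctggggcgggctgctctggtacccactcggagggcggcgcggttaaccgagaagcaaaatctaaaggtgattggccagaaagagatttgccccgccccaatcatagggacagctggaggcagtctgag
Trib3, chr2:152344032-152344200, minus strand: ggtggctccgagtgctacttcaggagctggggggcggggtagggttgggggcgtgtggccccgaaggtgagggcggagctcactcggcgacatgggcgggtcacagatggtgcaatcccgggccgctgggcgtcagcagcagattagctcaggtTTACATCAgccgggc

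The core begins 110 bases upstream of the annotated start in Nupr1, 139 in Fgf21 and 193 in Chac1, and at base 15 from that start in Trib3. For Trib3, unlike the other genes printed, no reference transcript examined held the 50 bases after the start near its own beginning. Whether the Trib3 core is transcribed therefore rests on the annotated start alone. The longer form TGATGNAAT, held by 1.08% of genes, was present in Nupr1 and Fgf21. No core stood in the windows of Atf4, Atf5, Ddit3, Gdf15, Sesn2 and Ddit4, which says only that these letters were absent there. The hypoxia-type cores ACGTG and GCGTG occurred for 21.8% and 35.2% of all genes. ACGTG was present in 5 of the 10 genes (Ddit3, Nupr1, Gdf15, Fgf21, Ddit4) and GCGTG in 6 (Atf4, Ddit3, Trib3, Fgf21, Chac1, Ddit4). ACGTG also lies within CACGTG, a palindrome read on both strands, as in Nupr1, Fgf21 and Gdf15. A match is a run of letters, and no binding was measured.

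Libraries held 23747014 to 27159228 counts in WT and 26542930 to 31393393 in KO. Sdhaf4 itself ran from 14.3 to 30.3 CPM (reads scaled to a common library size by TMM, which corrects for library composition) in WT and from 2.25 to 2.73 CPM in KO, with a log2 fold change of -3.39 (SE 0.16). The lowest WT value was that of WT replicate 6, and KO replicate 3 lay farthest from its group over all tested rows, with a mean absolute difference of 0.309 log2 units from the median of the other KO libraries (0.212 to 0.298 in the other KO libraries). Heart muscle markers summed to 52624 to 58348 CPM in WT and 45653 to 62716 CPM in KO, with 2 of 10 higher and 5 lower. Summed markers of fibroblasts rose without overlap, from 1419 to 1669 CPM in WT to 2582 to 4863 CPM in KO, with 8 of 8 higher, and those of endothelial cells from 1485 to 1662 CPM to 1703 to 2031 CPM, with 5 of 8 higher and 1, Tek, lower (exact two-sided permutation p = 0.00216 for each, the smallest that 6 against 6 allows). Macrophage markers overlapped (254 to 353 CPM in WT and 258 to 372 CPM in KO, 2 of 8 higher and 2 lower). So did those of mural cells (1338 to 1574 and 1390 to 1867 CPM, 2 of 7 higher and 1 lower) and lymphocytes (1.41 to 3.21 and 1.09 to 3.67 CPM, 1 of 4 tested higher and 0 lower), and no marker was at 0 counts throughout. The part of these shifts in the members' values was not tested, and in such bulk tissue a change in the number of cells of a type and a change in RNA per cell cannot be told apart.

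Of the 9 tested genes, 6 were higher in KO hearts and 0 lower. At a Benjamini-Hochberg adjusted p under 0.05 over 17155 rows, the quasi-likelihood test of edgeR called 25.6% of all rows higher and 25.5% lower. Nupr1 and Gdf15 rose about 4-fold and more, and these 2 also had an adjusted p under 0.005 and a log2 fold change over 1, which 5.36% of rows did in that direction. Ddit3 nearly doubled, and Ddit4, Sesn2 and Atf4 rose by less. With 1 library left out, the call held in only 5 of 12 fits for Ddit4 and 8 of 12 for Sesn2, against 12 of 12 for Atf4. Atf5, Trib3 and Chac1 were not called. The median log2 fold change of the 9 was 0.37, against 0.00 over all rows tested. In 4 of the 9 (Atf4, Ddit3, Nupr1, Gdf15) every KO library lay above every WT library, a separation seen in 14.9% of rows with KO higher and 15.2% with KO lower.

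**Figure D1:**
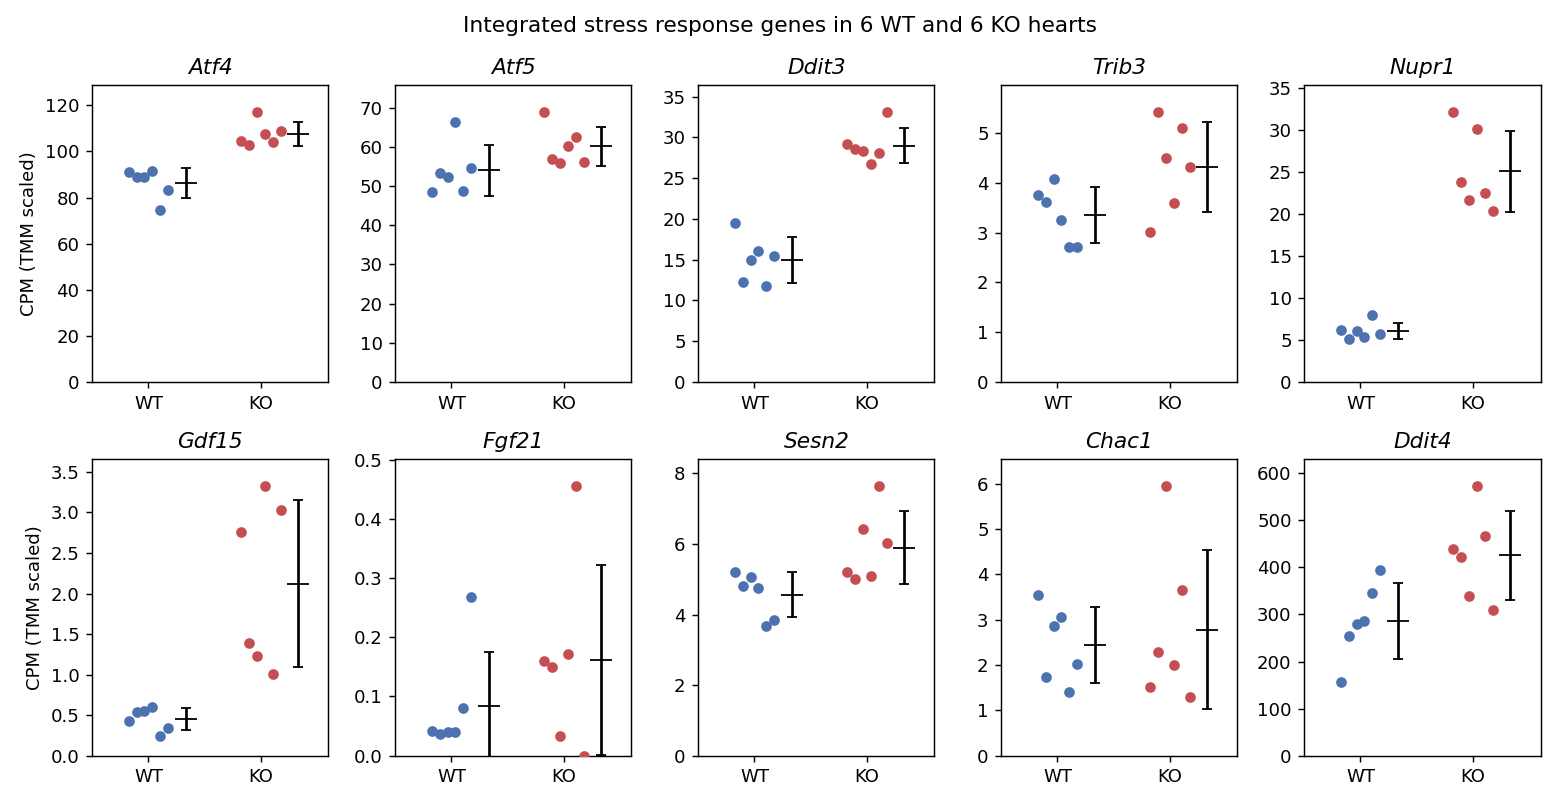
Scaled CPM of the 10 genes in each heart, with 1 point per library in replicate order, WT in blue and KO in red, and the mean with its SD (n = 6) beside each group. The groups are apart in Atf4, Ddit3, Nupr1 and Gdf15, and overlap in the other 6.

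Atf4, the transcription factor at the centre of the response, lies on chromosome 15 at 83765878 to 83768234 (positions of genes are on the C57BL/6NJ assembly that the table uses). Its level was 74.6 CPM in the lowest WT heart, 89.0 at the median and 91.3 in the highest, against 103, 106 and 117 CPM in KO. All 6 KO libraries were higher than all 6 WT libraries, although the step was small. The mean went from 86.4 ± 6.48 to 107.5 ± 5.21 CPM (SD, n = 6), a log2 fold change of 0.32 (SE 0.05, adjusted p = 0.000121), or 1.25-fold.

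Ddit3 encodes CHOP, a C/EBP family factor induced by ATF4 and linked to cell death under lasting stress. It lies on chromosome 10 at 135316972 to 135322486. WT hearts had 11.8, 15.2 and 19.6 CPM (lowest, median, highest) and KO hearts 26.7, 28.4 and 33.1 CPM. The groups were clearly apart, and the KO libraries were more alike than the WT ones. The mean rose from 15.0 ± 2.83 to 29.0 ± 2.19 CPM (SD, n = 6), a log2 fold change of 0.95 (SE 0.10, adjusted p = 9.34e-07). Ddit3 thus stayed just under the log2 fold change of 1, and passed it without WT replicate 1 (1.03, adjusted p = 1.93e-07), which made 3 members past both thresholds in place of 2. Its row overlaps Mars, the methionyl-tRNA synthetase gene on the other strand, by 68 bases, and since no source used here says whether counting was stranded, reads there cannot be assigned.

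Atf5, a related factor tied to the mitochondrial unfolded protein response, lies on chromosome 7 at 47281743 to 47286086. WT hearts had 48.6, 52.9 and 66.4 CPM and KO hearts 55.9, 58.6 and 68.9 CPM. The groups overlapped through a single WT library, replicate 4, which stood above 5 of the 6 KO libraries. The means were 54.0 ± 6.57 and 60.1 ± 5.02 CPM (SD, n = 6), a log2 difference of 0.15 (SE 0.07, adjusted p = 0.0960), and without WT replicate 4 it was 0.22 (adjusted p = 0.00933). Atf5 shares 512 bases with Il4i1 on the opposite strand.

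Nupr1, a small stress-induced chromatin protein that works with ATF4, rose strongly in every KO heart. It lies on chromosome 7 at 135996636 to 136005683. WT libraries held 5.09, 5.89 and 7.92 CPM (136 to 196 counts) and KO libraries 20.4, 23.1 and 32.1 CPM (566 to 1001 counts). Every KO heart was far above every WT heart, with KO replicates 1 and 4 the highest. The mean went from 6.05 ± 1.00 to 25.1 ± 4.84 CPM (SD, n = 6), a log2 fold change of 2.05 (SE 0.13, adjusted p = 3.08e-09), or 4.14-fold. Nupr1 is the one gene of the 4 with a C/EBP-ATF core whose transcript was called, and Fgf21 among them was below the filter.

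Trib3, a pseudokinase that restrains ATF4 and CHOP in a feedback loop, lies on chromosome 2 at 161450457 to 161457704. WT hearts had 2.71, 3.43 and 4.09 CPM and KO hearts 3.02, 4.41 and 5.43 CPM. In 4 of 6 KO libraries the level was above all WT libraries, while KO replicates 1 and 4 lay within the WT range. The log2 difference was 0.37 (SE 0.16, adjusted p = 0.0718), and without KO replicate 1 it was 0.45 (adjusted p = 0.0242). KO replicates 1 and 4, low in Trib3, were the highest in Nupr1.

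Gdf15 encodes a secreted member of the TGF-beta superfamily that lowers appetite through a hindbrain receptor. Its row is on chromosome 8 at 73587830 to 73590893. The 6 WT hearts gave only 10, 15, 14, 15, 6 and 9 counts, and the 6 KO hearts 86, 37, 37, 97, 31 and 84 counts. After scaling these were 0.243, 0.482 and 0.596 CPM in WT (lowest, median, highest) and 1.01, 2.07 and 3.33 CPM in KO. All KO libraries were above all WT libraries, and within KO replicates 1, 4 and 6 stood high and replicates 2, 3 and 5 low. The mean rose from 0.449 ± 0.138 to 2.12 ± 1.03 CPM (SD, n = 6), with a log2 fold change of 2.23 (SE 0.35, adjusted p = 4.70e-05), or 4.68-fold, and a KO range of 3.30-fold. When tested against a log2 fold change of 1 itself (edgeR's glmTreat, threshold 0.005), Nupr1 passed (adjusted p = 3.34e-06) and Gdf15 did not (adjusted p = 0.00687).

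Fgf21, the fasting hormone of liver that also acts as a mitokine, lies on chromosome 7 at 48168081 to 48169664. It was barely detected in the heart, with 1, 1, 1, 1, 2 and 7 counts in WT and 5, 4, 1, 5, 14 and 0 counts in KO. The groups overlapped, and 13 and 29 counts in all left the row below the filter. Fitted without a filter, the log2 difference was 0.91 (edgeR adjusted p = 0.390). An exact two-sided permutation test of CPM gave p = 0.368 (0.0842 ± 0.0912 in WT, 0.162 ± 0.161 in KO, SD, n = 6), where 3 counts in a library, the most that a count of 0 allows, correspond to 0.0956 to 0.126 CPM. A difference was not detectable at this depth. Such floors cover counting error only.

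Sesn2 encodes a leucine sensor that holds mTORC1 in check. It lies on chromosome 4 at 139518077 to 139540333. WT hearts had 3.68, 4.78 and 5.20 CPM and KO hearts 5.02, 5.61 and 7.65 CPM. The groups touched, with 4 of 6 KO libraries above all WT libraries. The mean went from 4.56 ± 0.639 to 5.90 ± 1.03 CPM (SD, n = 6), a log2 fold change of 0.37 (SE 0.14, adjusted p = 0.0308). This call was lost when any of WT replicates 5 or 6 or KO replicates 3 or 5 was left out (adjusted p = 0.0572 to 0.0907).

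Ddit4 (REDD1), another brake on mTORC1 that hypoxia and glucocorticoids also induce, was by far the most abundant of the 10. It lies on chromosome 10 at 61263772 to 61265867. Its level was 156, 283 and 393 CPM in WT and 310.0, 430.3 and 573 CPM in KO. The groups overlapped, since 2 KO hearts (replicates 3 and 6) lay inside the WT range. The mean went from 286 ± 81.3 to 425 ± 94.4 CPM (SD, n = 6), a log2 fold change of 0.57 (SE 0.21, adjusted p = 0.0401). Leaving out any of WT replicates 2 to 4 or KO replicates 1, 2, 4 or 5 ended the call (adjusted p = 0.0610 to 0.0894).

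Chac1, a glutathione-degrading enzyme that is a sensitive ATF4 and CHOP target in many cell types, lies on chromosome 2 at 126123209 to 126126361. It had 1.41, 2.45 and 3.55 CPM in WT and 1.30, 2.14 and 5.96 CPM in KO. The groups overlapped almost wholly, and the KO median was under the WT median, with KO replicates 3 and 5 alone above the WT range. The log2 difference was 0.19 (SE 0.36, adjusted p = 0.680), and it changed sign, to -0.19, without KO replicate 3. Chac1 and Trib3, which also have a C/EBP-ATF core in these windows, were thus not called, though Trib3 was called without KO replicate 1. Fgf21, the remaining gene with a core, was below the filter and could not be called. Ddit3, Gdf15, Atf4, Sesn2 and Ddit4 were called and had no core within their windows. Sites outside the windows were not searched, and a link between core and call was not tested.

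Levels of different genes can be compared only per transcript length, for which the FPKM values (fragments per kilobase of transcript, scaled to library size) of the same table were used. In WT hearts the order of mean FPKM was Ddit4 (170), Atf4 (50.1), Atf5 (30.9), Ddit3 (18.3), Nupr1 (6.87), Trib3 (3.18), Chac1 (1.49), Sesn2 (1.31), Gdf15 (0.307) and Fgf21 (0.0916). The libraries of neighbours in this order overlapped for Chac1 with Sesn2 and for Gdf15 with Fgf21. In KO hearts Ddit3 (35.4) and Nupr1 (28.6) came level with Atf5 (34.5), with overlapping libraries, and Gdf15 (1.46) came level with Chac1 (1.69). Ddit4 (254) and Atf4 (62.4) kept the first places and Fgf21 (0.176) the last. Nupr1 and Trib3 have FPKM values 2.79 and 1.92 times what their counts and the listed gene length give, so a shorter length was used for them and their places in the order rest on it. For Ddit3 the factor was 1.18, against 1.01 for Atf5, and its KO mean above that of Atf5 rests on this too.

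**Figure D2:**
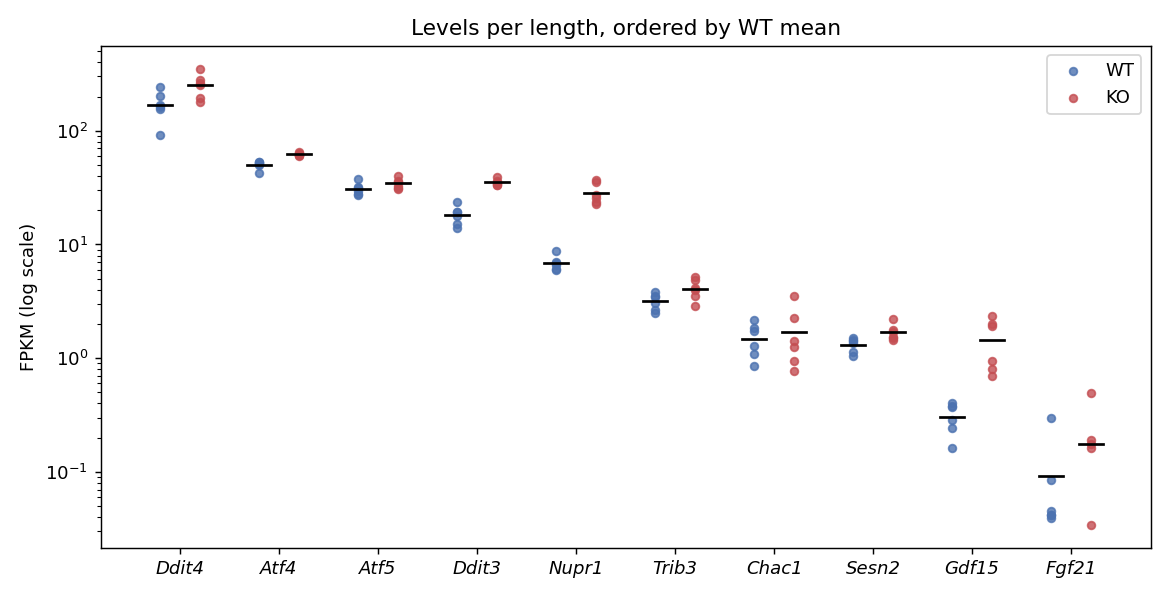
FPKM on a log axis of the 10 genes in WT (blue) and KO (red) hearts, ordered by the WT mean, with 1 point per library and a black line at each mean. Fgf21 was 0 in 1 KO library, which is not drawn. Nupr1 and Gdf15 climb toward their neighbours, while Ddit4 stays at the top.

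The genes whose pattern over the 12 libraries was nearest to that of Nupr1, by the mean absolute difference of centred log2 CPM, were Mgp (0.14), Igfbp7 (0.15) and Bgn (0.15). Each gene was centred over both genotypes together, so the distance includes the step between genotypes. Their log2 fold changes were 2.17, 1.98 and 2.03, against 2.05 for Nupr1, and shared variation within a genotype was not tested. Mgp and Bgn encode a matrix Gla protein and the proteoglycan biglycan, and Igfbp7 a secreted binding protein of insulin-like growth factors. For Gdf15 they were Gbe1, the glycogen branching enzyme (0.35), Coro2a (0.35) and Cd244 (0.37), all at a looser distance. Their log2 fold changes were 2.04, 1.54 and 2.25, against 2.23 for Gdf15, and Cd244 had a mean of only 0.189 CPM in WT.

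Upstream of ATF4, 17 genes of the eIF2 machinery were tested, of which 4 were higher (23.5%, against 25.6% of all rows), 6 lower (35.3%, against 25.5%) and 7 not called, with a median log2 fold change of -0.01. Among the kinases Eif2ak4 (GCN2, the amino acid sensor) rose from 12.5 ± 1.20 to 20.5 ± 2.84 CPM (log2 fold change 0.72, adjusted p = 7.62e-06), and Eif2ak3 (PERK, the ER sensor) from 13.8 ± 1.75 to 17.7 ± 1.41 CPM (0.37, adjusted p = 0.00206). Eif2ak1 (HRI), the kinase that relays mitochondrial stress, differed by -0.04 (SE 0.05, adjusted p = 0.524), and Eif2ak2 (PKR) by 0.27 (SE 0.19, adjusted p = 0.272). Impact, an inhibitor of GCN2, was also higher (0.50), as was Ppp1r15a (GADD34, 0.28), which directs the phosphatase that removes the phosphate from eIF2. Eif2s1, the eIF2 subunit that is phosphorylated, fell by 0.36 on the log2 scale, and Eif2b1 (-0.35), Eif2b4 (-0.24) and Gcn1 (-0.12) were lower. In the relay from mitochondria to HRI, the protease Oma1 was lower (-0.21), as was its substrate Dele1, listed under an older symbol, which went from 135 ± 5.43 to 88.3 ± 3.47 CPM without overlap (log2 fold change -0.62, SE 0.04, adjusted p = 8.16e-09). Transcripts of a kinase say nothing of its activity.

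Of the receptors for the mitokines, Gfral, the GDF15 receptor, had 1 count over the 12 libraries, and Klb, the coreceptor that FGF21 needs, also 1. Of the FGF receptors with which Klb pairs, Fgfr1, Fgfr2 and Fgfr3 passed the filter and Fgfr4 did not. Fgfr1 rose from 35.0 ± 1.85 to 63.2 ± 3.49 CPM (SD, n = 6; log2 fold change 0.85, SE 0.05, adjusted p = 1.32e-09), Fgfr2 from 0.571 ± 0.272 to 2.46 ± 0.450 CPM (2.11, SE 0.28, adjusted p = 7.50e-06) and Fgfr3 from 18.4 ± 2.69 to 34.5 ± 7.82 CPM (0.91, SE 0.15, adjusted p = 0.000169). Fgfr4 had 12 counts in all. Ret, the kinase partner of GFRAL, had 5.36 ± 1.63 and 3.91 ± 0.865 CPM (-0.46, adjusted p = 0.0641).

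Of 8 tested relatives of the members, 0 were higher and 3 lower (37.5%, against 25.5% of all rows). Ddit4l (REDD2) fell from 2.78 ± 0.918 to 0.759 ± 0.286 CPM (log2 fold change -1.87, SE 0.28, adjusted p = 3.23e-05) while Ddit4 rose, and Chac2 was lower by 0.46 on the log2 scale (adjusted p = 0.00144). Atf3, the stress factor induced with Ddit3 in many settings, went from 17.7 ± 5.88 to 5.43 ± 3.23 CPM (-1.70, SE 0.35, adjusted p = 0.00168). The p-values of Sesn1, Sesn3, Trib1, Trib2 and Nupr2 missed the threshold, with log2 differences of -0.11 to 0.30.

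**Figure D3:**
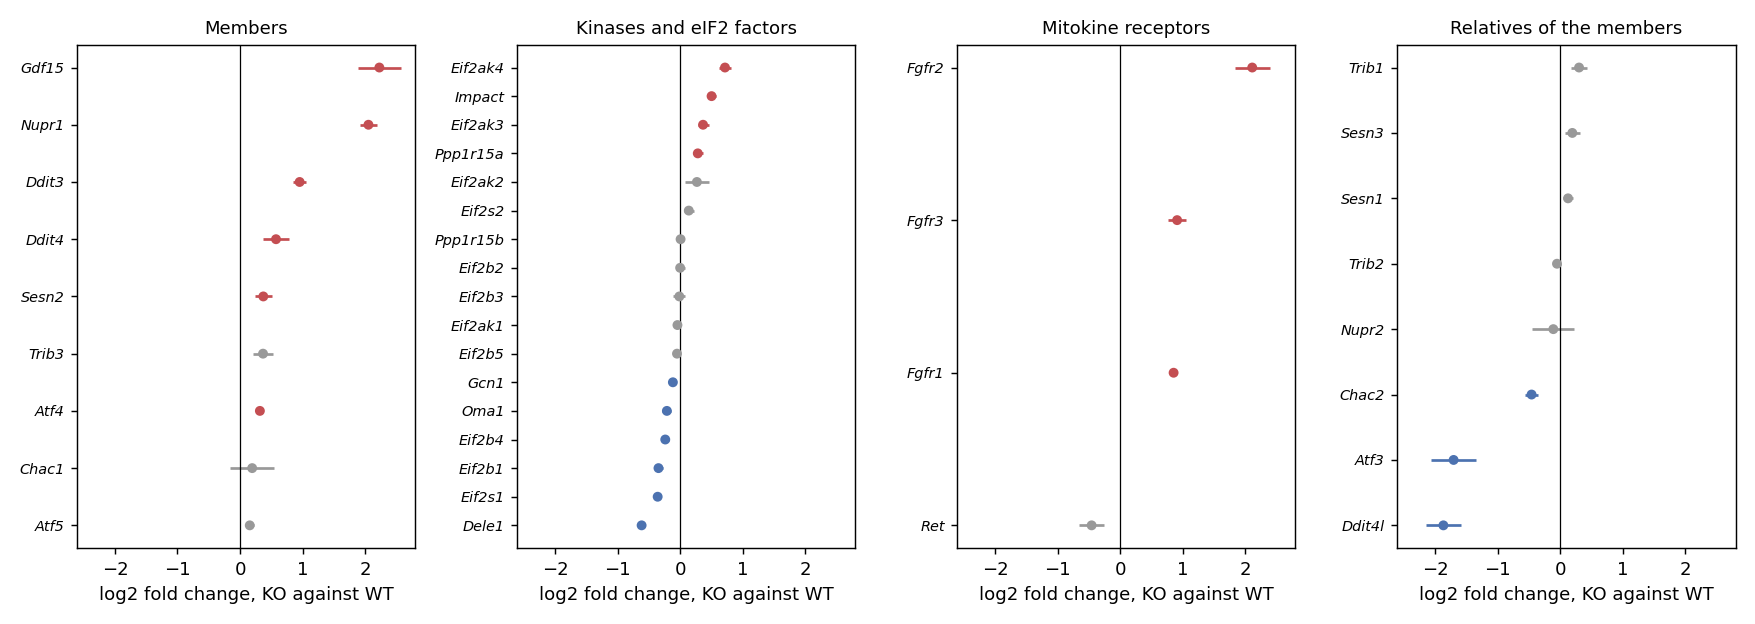
Log2 fold changes of KO against WT with their SE for the 9 tested members, 17 genes of the kinases and eIF2 factors, 4 mitokine receptors and 8 relatives of the members. Red points are higher and blue points lower at an adjusted p under 0.05, and grey points were not called. Members lie right of 0, receptors Fgfr1 to Fgfr3 also, and the called relatives left of it.

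Among 33 other known ATF4 targets, 18 were higher and 10 lower, with a median log2 fold change of 0.33, so the shares were 54.5% higher and 30.3% lower against 25.6% and 25.5% of all rows. The mitochondrial folate enzyme Mthfd1l rose from 0.520 ± 0.160 to 4.21 ± 1.12 CPM (log2 fold change 3.01, SE 0.24, adjusted p = 3.30e-08), and Slc3a2, the shared chain of amino acid transporters, from 40.1 ± 2.53 to 65.6 ± 5.33 CPM (0.71). Mthfd2 (2.71), Pycr1 of proline synthesis (1.65) and Asns, asparagine synthetase (1.39), were also higher; they are named after their values were seen. The 10 lower genes included Aldh1l2, the mitochondrial formyl-folate dehydrogenase, which fell from 8.06 ± 1.86 to 1.58 ± 0.231 CPM (-2.35, SE 0.16, adjusted p = 6.37e-09), Cth of cysteine synthesis (-2.15) and the alanine transaminase Gpt2 (-1.82). The others were Atf3, Slc7a1 (-0.92), Vldlr (-0.90), Sqstm1 (-0.67), Eif4ebp1 (-0.41), Shmt2 (-0.25) and Wars1 (-0.19). Within the mitochondrial folate enzymes, 2 thus rose and 2 (Aldh1l2 and Shmt2) fell.

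Of 20 genes of the ER unfolded protein response, 5 were higher and 5 lower (25% each), shares near the 25.6% and 25.5% of all rows, with a median of -0.08. Herpud1 fell by 0.87 on the log2 scale, and Pdia6 (-0.31), Creld2 (-0.31), Hyou1 (-0.24) and Ern1 (-0.18) were also lower. Sel1l (0.41) and Edem1 (0.45) of ER-associated degradation rose, and so did Pdia3 (0.27), Hspa5 (BiP, 0.20) and Dnajb11 (0.14). Of 12 mitochondrial chaperones and proteases, 4 were higher (33.3%) and 5 lower (41.7%), with a median of -0.03, where the shares over all rows are again 25.6% and 25.5%. The chaperonin subunits Hspe1 (-0.80) and Hspd1 (-0.25) fell, as did Clpx (-0.81), the protease Clpp (-0.37) and Trap1 (-0.42). The proteases Afg3l2 (0.64), Lonp1 (0.48), Htra2 (0.22) and Spg7 (0.19) rose, so proteases went both ways.

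**Figure D4:**
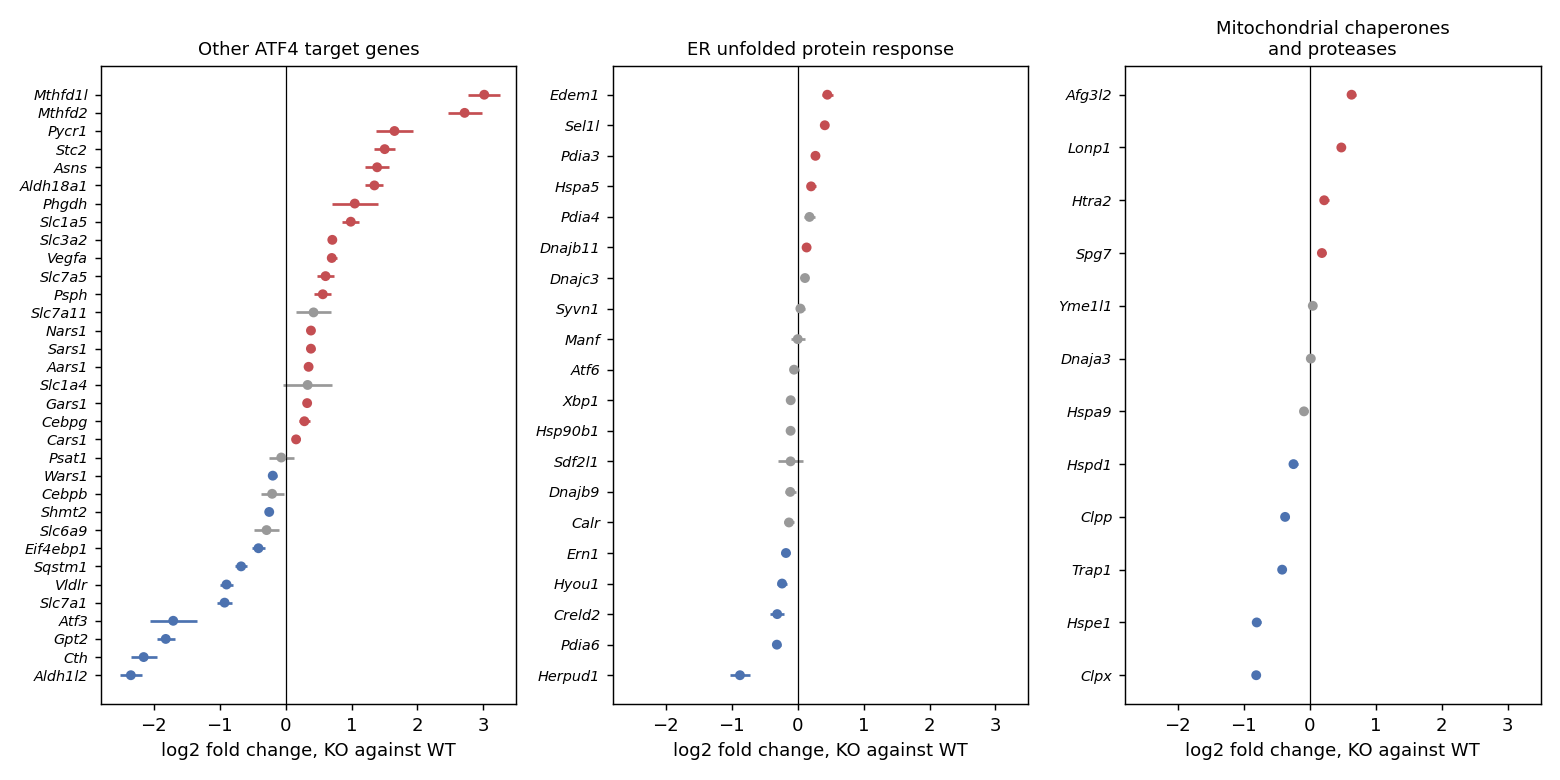
Log2 fold changes of KO against WT with their SE for 33 other ATF4 targets, 20 genes of the ER unfolded protein response and 12 mitochondrial chaperones and proteases, coloured as higher (red) or lower (blue) at an adjusted p under 0.05, or not called (grey). The ATF4 targets spread from -2.35 (Aldh1l2) to 3.01 (Mthfd1l), and the other lists lie within 1 log2 unit of 0.

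Gdf15 and Sesn2 are also targets of p53. Of 14 p53 targets other than the members, 7 were higher (50%, against 25.6% of all rows) and 2 lower (14.3%, against 25.5%), with a median log2 fold change of 0.21. Phlda3 (1.54), Trp53inp1 (0.90) and Zmat3 (0.46) had the smallest p and rose, and Eda2r (-0.58) and Ccng1 (-0.24) fell.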

How the data were processed

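The members and gene lists were chosen with earlier results of these data known. Poly-A RNA was sequenced from 12 hearts. The submitters' processing notes name HISAT2 2.0.5 and mm10, and the authors counted reads per gene with HTSeq. The deposited counts are raw whole numbers, and the deposited FPKM values were computed by the authors per library. The identifiers and coordinates are those of the C57BL/6NJ assembly, so coordinates are given on it and promoter windows separately from RefSeq on GRCm38.p6. The authors' group means and their DESeq columns (fold changes with raw and adjusted p-values) were not used.

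The count model was edgeR 4.0.16 under R 4.3.3, with filterByExpr (17155 of 43686 rows kept), TMM and the robust quasi-likelihood test with Benjamini-Hochberg adjustment. Log2 CPM used a prior count of 2, and CPM values are TMM scaled. Fgf21, below the filter, was tested by an exact permutation test over 924 arrangements. Groups and replicate numbers came from the labels. Nothing in the labels says how the hearts share litters or batches, so p-values measure the spread between these hearts. The chi-square per degree of freedom between libraries of a genotype was 7.41 or more, and none were merged. On simulated counts for KO against WT (17155 genes, 200 changed by a log2 fold change of 1.5), 179 were recovered with 17 false calls. Members other than Nupr1 and Gdf15 changed by less than 1.5, so the check does not cover changes of their size. It also changed far fewer genes than the 25.6% of rows called higher and 25.5% called lower in the hearts.

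The genes named are the members, Sdhaf4, the upstream, receptor and related genes whose values bear on a member, and in each other list the 3 with the smallest p and those called against the list's median. Among the ATF4 targets, Mthfd2, Pycr1, Asns, Stc2 and Aldh18a1 are named outside this rule. In the lists of the ER response and of mitochondrial chaperones and proteases, every called gene is named. For each member past both thresholds, the 3 genes nearest over the 12 libraries are given. Of the listed genes, 1 (Eif2s3x) was not analysed here, and Dele1 was matched through RefSeq synonyms. Alternatives were other normalizations (DESeq2 size factors, upper quartile, total count), other tests (limma-voom, DESeq2 1.42.0, glmTreat, limma 3.58.1 on log2 of FPKM plus 0.1), other filters, a replicate block and each library left out. Added once the data had been seen were fits without KO replicate 3 and WT replicate 6 and fits without unannotated loci.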

Additional observations from a re-analysis of the deposited data

Results flagged for a closer look

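Of 22 groups of 6 libraries examined (the 10 members and Sdhaf4 in each genotype), 4 held a library whose gap to its nearest neighbour was a larger share of the range than Dixon's 95% critical value, where chance flags about 1 in 20 groups, or 1.1 here. Atf5 stood at 66.4 CPM in WT replicate 4, against 54.7 CPM in the next WT heart. Nupr1 was 7.92 CPM in WT replicate 5, with 6.13 CPM next. Fgf21 was 0.267 CPM (7 counts) in WT replicate 6, with 0.0808 CPM next. Sdhaf4 was 2.73 CPM in KO replicate 1, with 2.41 CPM next. Of the 3 of these genes that were tested, leaving out the library in question changed that gene's own call for Atf5 alone, as given above.

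A further signal came from a row below the filter. Fgf23, the hormone of phosphate balance and a relative of Fgf21, had 1 count over the 6 WT hearts, and in the KO hearts 1, 2, 21, 5, 8 and 21 counts, a mean of 0.332 ± 0.316 CPM (SD, n = 6). The WT count was in replicate 6. Every KO heart had at least 1 count and 5 of 6 WT hearts had none. The groups overlapped in 1 library of each, and an exact two-sided permutation test of CPM gave p = 0.00433, which was not adjusted. Gfral, Klb, Fgfr4 and Fgf15 were tested in the same way, and Fgf23 is given here because its p was under 0.05. The 2 highest counts were in KO replicates 3 and 6, the KO libraries farthest from their group over all tested rows (0.309 and 0.298 log2 units). Fgf15, the other hormone-like relative, had 0 counts in both groups.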

How the results depend on the processing

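The direction and call of Atf4, Ddit3, Nupr1 and Gdf15 held in all 23 other fits (log2 fold changes of 0.27 to 0.33, 0.89 to 1.03, 1.97 to 2.14 and 1.83 to 2.37). Sesn2 lost its call in 7 of 23 (0.28 to 0.41) and Ddit4 in 9 of 23 (0.44 to 0.74). Chac1 reversed to -0.19 without KO replicate 3 and to -0.24 with KO replicate 3 and WT replicate 6 left out; the cause was not tested. With those 2 left out, 5 members were called and Sesn2 was not (adjusted p = 0.112). Leaving out 1 library gave 4 to 6 members called. Ddit4 also lost its call with no filter on low counts (adjusted p = 0.0722), and Sesn2 on log2 FPKM (adjusted p = 0.0552). With glmTreat 297 rows were higher and 291 lower past a log2 fold change of 1 (919 and 836 by the 2 thresholds), and 1 member in place of 2, since that test asks for a change beyond 1. The 9-letter element left 2 members in place of 4. A fit with the replicate block called 4 members higher in place of 6, Sesn2 (adjusted p = 0.0751) and Ddit4 (0.0728) being the ones lost, with 4124 rows higher and 4108 lower. The deviations of hearts with the same number correlated at -0.16 to 0.02, which gave no sign that the numbers pair them. Such correlations cannot exclude a weak pairing. Genes under 1 CPM, Gdf15 in WT and Fgf21, rest on few counts.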
